A study of Rattus norvegicus with 6 samples.

Results

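The genes described here are 4 tubular injury markers whose proteins are secreted or shed: Havcr1 (ENSRNOG00000007243, chromosome 10), which encodes kidney injury molecule 1, Lcn2 (ENSRNOG00000013973, chromosome 3), which encodes neutrophil gelatinase-associated lipocalin, Clu (ENSRNOG00000016460, chromosome 15), which encodes clusterin, and Spp1 (ENSRNOG00000043451, chromosome 14), which encodes osteopontin. They were taken by Ensembl ID, and all 4 were found among the 21986 genes of the table on the chromosome where RefSeq places the gene. The table has no symbols, so the chromosome is the check that it allows on each name. Kidney RNA of wild-type male Wistar rats was sequenced in 3 control and 3 FSGS libraries, FSGS being focal segmental glomerulosclerosis, a scarring disease of the glomeruli. Rats of the FSGS group lost the left kidney and were then injected by tail vein with adriamycin, an anthracycline that injures podocytes, in a first dose of 5 mg/kg, 7 days after the operation, and a second of 3 mg/kg at 28 days. Control rats were given saline, and an operation is not mentioned for them. Removal of a kidney and adriamycin therefore cannot be told apart, and the day of tissue collection and the age of the rats were not stated in the labels used here. The titles call all samples untreated, whereas the treatment field lists these injections, so groups follow the group name in the title. Separate animals per library are not stated, and p-values describe the spread between these libraries.

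Proximal tubule cells make very little kidney injury molecule 1 in a healthy kidney, and place it on their apical surface after injury, where it binds phosphatidylserine on dying cells before its ectodomain is shed into the urine. Lipocalin 2 is a small secreted protein that binds bacterial siderophores and so withholds iron, and clusterin is a secreted chaperone that holds unfolded proteins in solution. Osteopontin is an acidic, phosphorylated matrix protein that binds integrins and CD44, and in the normal kidney it is made mainly in distal parts of the nephron. All 4 are used as markers of tubular damage, in urine or in tissue.

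The stretch of DNA before the transcription start is shown for the 3 members in the RefSeq promoter table (assembly GRCr8). All 3 rose in the data that follow, and a part of these stretches in that rise was not tested. Each line gives the 250 bases before the start, 5′ to 3′ on the strand of the gene, and capitals mark the motif matches described after them. Havcr1 lies at chr10:31629528-31629777 on the plus strand, Lcn2 at chr3:36081781-36082030 on the minus strand and Spp1 at chr14:5619805-5620054 on the minus strand.
Havcr1: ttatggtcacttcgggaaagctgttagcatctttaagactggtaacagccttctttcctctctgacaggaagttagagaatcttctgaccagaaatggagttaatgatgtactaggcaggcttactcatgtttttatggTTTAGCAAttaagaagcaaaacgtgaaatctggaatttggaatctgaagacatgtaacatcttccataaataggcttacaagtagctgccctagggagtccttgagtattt
Lcn2: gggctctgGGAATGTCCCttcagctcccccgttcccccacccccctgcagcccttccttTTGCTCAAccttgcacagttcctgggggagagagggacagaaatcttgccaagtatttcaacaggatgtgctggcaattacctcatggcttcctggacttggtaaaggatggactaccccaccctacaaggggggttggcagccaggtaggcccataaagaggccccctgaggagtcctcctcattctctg
Spp1: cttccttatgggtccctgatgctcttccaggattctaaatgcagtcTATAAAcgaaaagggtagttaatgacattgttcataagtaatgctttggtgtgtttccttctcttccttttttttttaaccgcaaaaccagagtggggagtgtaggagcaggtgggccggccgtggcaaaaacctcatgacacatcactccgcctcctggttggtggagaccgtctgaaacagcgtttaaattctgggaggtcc

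Both strands of these stretches were searched for 6 motifs: a TATA box (TATAAA), AP-1 (TGANTCA), STAT (TTCNNNGAA), C/EBP (TTGCNNAA), an E-box (CACGTG) and the NF-kappaB consensus. Lcn2 held an NF-kappaB match on the reverse strand, GGAATGTCCC, at 242 to 233 bases before the start, and a C/EBP match, TTGCTCAA, at 191 to 184. Havcr1 held a C/EBP match on the reverse strand, TTTAGCAA as printed, at 111 to 104 bases before the start. Spp1 held TATAAA at 204 to 199 bases before the start. The matches did not overlap each other, and no motif matched in all 3 genes. Of the 33469 RefSeq promoters cut to the same length, 3.54% held the NF-kappaB consensus, 9.22% the C/EBP motif and 12.9% TATAAA. The AP-1 and STAT letters and the E-box form CACGTG, found in 6.34%, 7.67% and 5.59% of all promoters, were not in these 3 windows. Other forms of the E-box were not searched. The GC content was 39.2% for Havcr1, 57.2% for Lcn2 and 46.8% for Spp1, with a median of 51.2% over all promoters. These are matches of letters, and binding was not measured.

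Havcr1, the receptor for dying cells, was close to the bottom of the scale in control kidneys and among the abundant transcripts in FSGS kidneys. Values are FPKM, a count of fragments per gene that is scaled for gene length and library size. Controls 1, 2 and 3 had 1.06, 0.20 and 0.28 FPKM, and FSGS libraries 1, 2 and 3 had 116, 57.1 and 213 FPKM. FSGS 3 was highest and FSGS 2 lowest, and the lowest FSGS value was 53.8 times the highest control value. The means were 0.513 ± 0.475 and 129 ± 78.9 FPKM (SD, n = 3 each). In units of log2(FPKM + 1), where low values appear closer together than they are, the increase was 6.27 (95% interval 5.32 to 7.23; limma adjusted p = 2.54e-05). On that scale this was the largest increase of all 14139 genes tested. Its size depends on the constant added to such low control values: it was 7.78 with 0.1 and 4.42 with 5, and the gene then ranked 2 and 3.

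Lcn2, the siderophore-binding lipocalin, overlapped with Havcr1 in controls and reached a far lower level than it in FSGS. Controls 1, 2 and 3 had 0.68, 0.69 and 0.12 FPKM, and FSGS 1, 2 and 3 had 19.4, 13.9 and 24.7 FPKM. The FSGS libraries took the same order as for Havcr1, with FSGS 3 highest and FSGS 2 lowest, and the lowest of them was 20.1 times the highest control. The means were 0.497 ± 0.326 and 19.3 ± 5.38 FPKM (SD, n = 3 each). The log2 increase was 3.75 (95% interval 3.22 to 4.28; limma adjusted p = 1.98e-05), rank 24 among the genes tested. Genes entered the test at a mean of 0.5 FPKM over all 6 libraries, and Lcn2, with a control mean just under that, entered through its FSGS values. The increase was 5.20 with a constant of 0.1 and 2.12 with 5, at ranks 19 and 63. It was thus the smallest of the 4 members with a constant of 1 or 5, while with 0.1 it was above those of Clu (4.97) and Spp1 (4.46).

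Clu, the chaperone, was moderately expressed in controls and became one of the leading transcripts of the FSGS kidneys. Controls 1, 2 and 3 had 23.4, 29.6 and 16.3 FPKM, and FSGS 1, 2 and 3 had 461, 574 and 1315 FPKM. FSGS 3 was the highest, at 2.85 times FSGS 1, and the lowest FSGS value was 15.6 times the highest control. The means were 23.1 ± 6.68 and 784 ± 464 FPKM (SD, n = 3 each). The log2 increase was 4.91 (95% interval 4.07 to 5.75; limma adjusted p = 4.03e-05), rank 4 of all genes tested. Without FSGS 3 the increase was 4.46 (adjusted p = 2.1e-05).

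Spp1, the matrix protein, was abundant in control kidneys already and rose from there. Controls 1, 2 and 3 had 349, 702 and 207 FPKM, and FSGS 1, 2 and 3 had 9715, 7232 and 7779 FPKM. Control libraries differed by up to 3.39 times and FSGS libraries by up to 1.34 times, and the lowest FSGS value was 10.3 times the highest control. The means were 420 ± 255 and 8242 ± 1305 FPKM (SD, n = 3 each). The log2 increase was 4.46 (95% interval 3.59 to 5.33; limma adjusted p = 6.84e-05), rank 11. Without control 2, the highest control, it was 4.92 (adjusted p = 2.27e-05), and without control 3, the lowest, it was 4.04 (adjusted p = 0.000436).

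**Figure D1:**
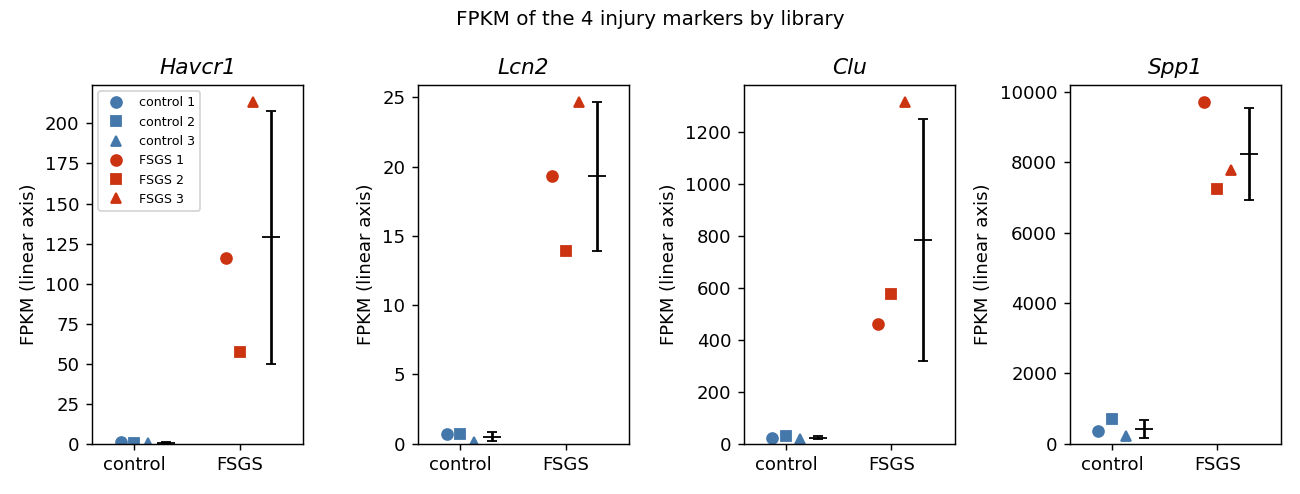
FPKM (linear axes, each from 0) of Havcr1, Lcn2, Clu and Spp1 in the 3 control (blue) and 3 FSGS (red) libraries, with the group mean and SD in black beside the points. In each panel all FSGS points lie above all control points; FSGS 3 is the highest for Havcr1, Lcn2 and Clu, and FSGS 1 for Spp1.

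All 4 members rose, where 27.0% of the genes tested rose by limma at adjusted p under 0.05. The groups did not overlap for any of the 4, with FSGS above control, as was the case for 34.6% of the genes tested. The two-sided exact permutation p was 0.1 for each member, the smallest that 3 against 3 libraries can give. The median log2 change of all genes tested was 0.11, against 3.75 to 6.27 for the members. In bulk tissue, more cells of a type and more RNA per cell cannot be told apart, nor can fewer cells and less RNA per cell.

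**Figure D2:**
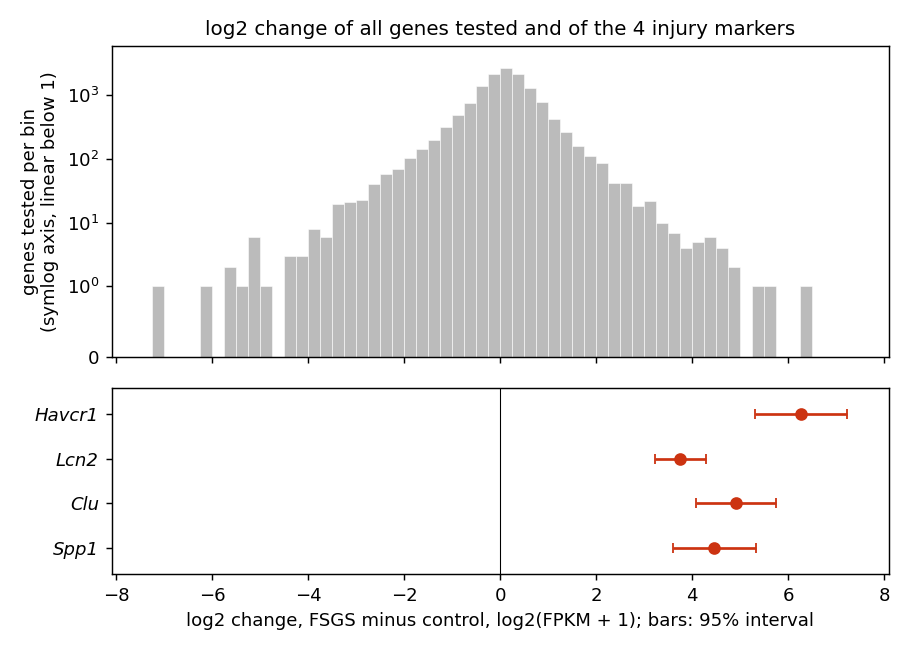
Upper panel: number of genes tested in each bin of log2 change, FSGS minus control, on the log2(FPKM + 1) scale (symlog count axis). Lower panel: the 4 members on the same axis with their 95% intervals from limma; they lie between 3.75 and 6.27, in the right tail of the distribution.

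The members ranked differently by log2 change, by ratio of means and by amount. The mean FPKM of FSGS over that of control was 251 for Havcr1, 38.9 for Lcn2, 33.9 for Clu and 19.6 for Spp1. By this ratio Lcn2 was second, though its increase of log2(FPKM + 1) was the smallest of the members. For Havcr1 and Lcn2 the ratio rests on very low control values. By the difference of mean FPKM, Spp1 gained 7823 FPKM, the largest gain of all nuclear genes, and Clu gained 760 FPKM, the 4th largest. Havcr1 gained 128 FPKM and ranked 49, against rank 1 by the change of log2(FPKM + 1), and Lcn2 gained 18.8 FPKM and ranked 463. Spp1 was the most abundant nuclear gene in all 3 FSGS libraries, from ranks 91, 24 and 173 in controls 1, 2 and 3. Clu moved from ranks 2195, 1757 and 2731 in controls to 45, 25 and 7 in FSGS 1, 2 and 3. Havcr1 moved from between 12129 and 15593 in controls to 318, 729 and 117 in FSGS 1, 2 and 3. Lcn2 moved from between 13103 and 15935 to between 1752 and 3658.

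**Figure D3:**
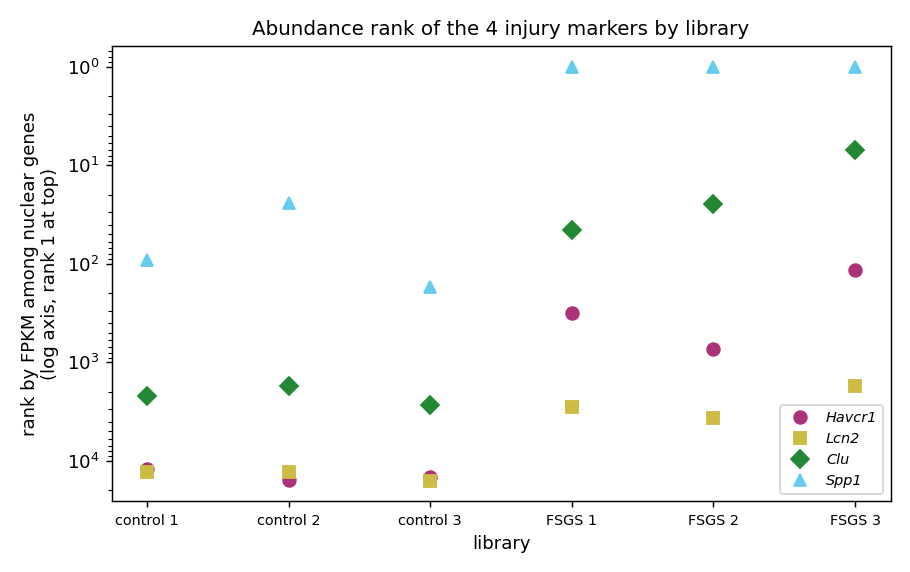
Rank by FPKM among nuclear genes (log axis, rank 1 at the top) of the 4 members in each library. Spp1 holds rank 1 in each FSGS library, Clu lies between 7 and 45 there, and Havcr1 and Lcn2 move up from ranks of 12129 and beyond in controls.

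The 4 genes summed to 374, 733 and 224 FPKM in controls 1, 2 and 3, and to 10312, 7878 and 9332 FPKM in FSGS 1, 2 and 3. This was 0.0873% to 0.253% of the summed FPKM of nuclear genes in controls and 3.13% to 4.00% in FSGS. Spp1 supplied most of it, with 92.6% to 95.8% of the sum in controls. In FSGS 1, 2 and 3 it supplied 94.2%, 91.8% and 83.4%, the low share of FSGS 3 going with its high Clu. FPKM is scaled by length, so these are not shares of reads.

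FPKM allows levels to be set in order. In every FSGS library the order was Spp1, Clu, Havcr1, Lcn2, and the ranges of neighbours did not overlap: the lowest Spp1 value was 7232 against a highest Clu value of 1315, the lowest Clu value 461 against a highest Havcr1 value of 213, and the lowest Havcr1 value 57.1 against a highest Lcn2 value of 24.7 FPKM. In every control library Spp1 was first and Clu second. Havcr1 and Lcn2 overlapped in controls, Havcr1 being the higher in controls 1 and 3 and Lcn2 in control 2.

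Ratios between members within a library, which no scaling of whole libraries can move, were used to ask whether the members differed in their response. Havcr1 was 1.56, 0.29 and 2.33 times Lcn2 in controls 1, 2 and 3, and 5.99, 4.11 and 8.66 times Lcn2 in FSGS 1, 2 and 3. The log2 ratio was thus 2.55 higher in FSGS (means 0.025 ± 1.596 and 2.58 ± 0.54; SD, n = 3 each). Relative to Clu, the log2 ratio of Havcr1 was -5.84 ± 1.37 in controls and -2.65 ± 0.67 in FSGS, a difference of 3.20. Relative to Spp1 it was -9.89 ± 1.74 and -6.19 ± 0.92, a difference of 3.70. In these 3 pairs the groups did not overlap, and each had a two-sided exact permutation p of 0.1, the smallest possible, and 0.2 adjusted over the 6 pairs. With 3 libraries a group this test cannot pass 0.05, so it did not resolve a difference in response in these pairs. The 3 pairs share the same Havcr1 values and are not independent of each other. How often pairs among all genes tested lack overlap in this way was not determined. With a constant of 1 added to the FPKM values, the differences were 1.36 relative to Clu and 1.81 relative to Spp1, and 2.52 relative to Lcn2.

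The other 3 pairs overlapped between the groups. The log2 ratio of Lcn2 to Clu was -5.87 ± 1.06 in controls and -5.23 ± 0.59 in FSGS (SD, n = 3 each; exact permutation p = 0.5). That of Lcn2 to Spp1 was -9.92 ± 0.88 and -8.77 ± 0.40 (exact permutation p = 0.2), and that of Clu to Spp1 was -4.05 ± 0.47 and -3.54 ± 0.92 (exact permutation p = 0.4). Adjusted over the 6 pairs these were 0.5, 0.3 and 0.48. A difference in response within these pairs was not resolved either. For Lcn2 against Clu and against Spp1 the sign of the difference turned when a constant of 1 was added to the FPKM values, to -1.16 and -0.71. Ratios with Havcr1 or Lcn2 rest on control values between 0.12 and 1.06 FPKM, given to 2 decimals and of unknown depth.

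**Figure D4:**
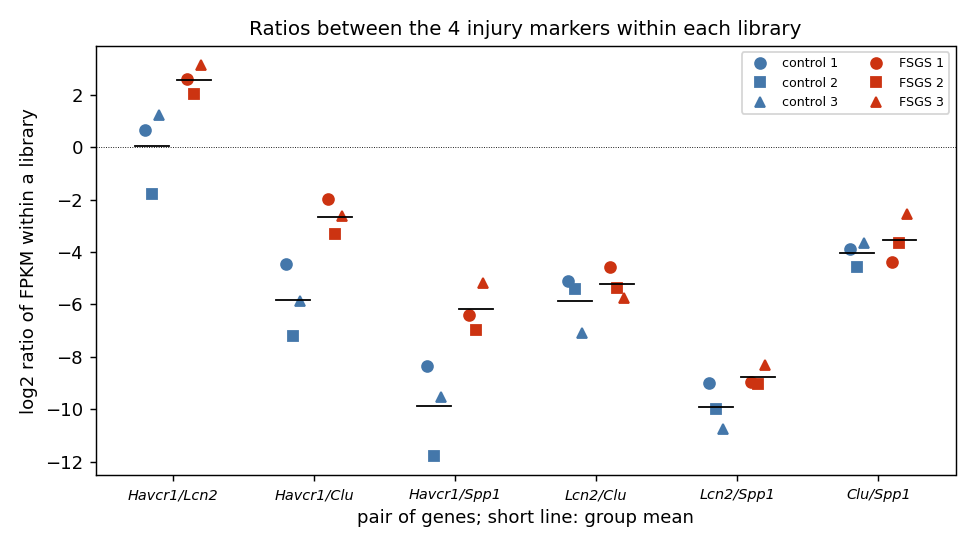
log2 ratio of FPKM between each pair of members within a library, for controls (blue) and FSGS (red), with a short line at the group mean. The FSGS points lie above all control points in the 3 pairs with Havcr1 and overlap with them in the other 3 pairs.

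Libraries of 1 group were unlike each other in these genes. The residual SD within groups, on the log2(FPKM + 1) scale, was 0.73 for Havcr1, 0.64 for Clu, 0.64 for Spp1 and 0.37 for Lcn2. These lay at the 99.0th, 98.3rd, 98.4th and 88.9th percentile of all genes tested. FSGS 3 was 0.92, 0.90 and 0.37 above the FSGS mean for Havcr1, Clu and Lcn2 on that scale, and 0.07 below it for Spp1. FSGS 2 was the lowest FSGS library for Havcr1, Lcn2 and Spp1, and FSGS 1 for Clu. Control 3 was the lowest control for Lcn2, Clu and Spp1, and control 2 for Havcr1. The increases were larger than this spread for each member. The order of the residual SDs depends on the constant, which compresses the low control values of Lcn2. With a constant of 0.1 they were 0.998 for Havcr1, 0.80 for Lcn2, 0.64 for Clu and 0.64 for Spp1. Lcn2 then lay at the 96.4th percentile, above Clu and Spp1, both at the 92.9th.

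Among the other genes tested, the one nearest to Havcr1 in pattern was ENSRNOG00000025571 on chromosome 13. Likeness was the root mean square difference of log2(FPKM + 1) values over the 6 libraries, each gene taken relative to its own control mean, and came to 0.65. Its control values were 0.1, 0 and 0 FPKM in replicates 1, 2 and 3, a 0 being what the table lists, and its FSGS values 57.3, 39.2 and 54.9 FPKM. No gene lay within 0.5 of Havcr1, while 18 lay within 0.5 of Lcn2. The distance includes the size of the change, and Havcr1 had the largest increase of all genes tested. Few genes could therefore lie near it, and these counts do not compare how distinctive the patterns were. The nearest to Lcn2 was ENSRNOG00000021256, also on chromosome 3, at a distance of 0.20. It had 0.15, 0.17 and 0.08 FPKM in controls 1, 2 and 3 and 17.1, 11.3 and 16.8 FPKM in FSGS 1, 2 and 3. Like ENSRNOG00000025571, it had control values under the filter of 0.5 FPKM and entered the test through its FSGS values. Between members the distance was smallest for Lcn2 and Spp1, at 0.66, and largest for Havcr1 and Lcn2, at 1.83. The constant of 1 compresses the low control values of Havcr1 and Lcn2, and distances without it were not computed. In log2 ratios without a constant, Havcr1 to Lcn2 changed by 2.55, less than Havcr1 to Clu (3.20) or to Spp1 (3.70). Lcn2 to Spp1 changed by 1.15, more than Lcn2 to Clu (0.64) or Clu to Spp1 (0.51). The table gives no symbols for the pair of genes named by ID.

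Over the whole table, summed FPKM ran from 614047 to 691777 in controls and from 754892 to 824403 in FSGS, and mitochondrially encoded genes made up 51.6% to 62.9% and 64.0% to 71.7% of it. Neither range overlapped between the groups, and replicate 3 had the highest mitochondrial share in each group. The part of these differences in the members' levels was not tested. Under 4 other scalings of the libraries the median log2 change of all genes moved from 0.11 to between -0.12 and 0.22. The increases of the members then ran from 6.19 to 6.38 for Havcr1, 3.68 to 3.85 for Lcn2, 4.64 to 5.04 for Clu and 4.17 to 4.60 for Spp1. Kidney cell type markers were not analysed here, because the table carries no gene symbols.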

How the data were processed

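Poly(A) RNA of 6 rat kidney libraries was made into dUTP strand-marked libraries and read as paired ends, per the labels' protocols. Values are FPKM per the file headers, computed by the authors and given to 2 decimals. The submitters' processing notes list StringTie 2.1.6, HISAT2 2.2.1 and cutadapt 1.9, along with edgeR and DESeq2, and give none of them a role. The build and annotation are not given in the sources used here. FPKM holds no counts. To look for whole-read steps, log2 ratios between pairs of libraries were taken over 16 to 136 genes per pair. At most 12.8% of them fell in any window of 0.05. The lowest values were left out of this check, so it could not settle whether such steps exist, and depth remained unknown.

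Genes with a mean of at least 0.5 FPKM (14139 of 21986) were tested with limma 3.58.1 in R 4.3.3 on log2(FPKM + 1), with a mean-variance trend and group as the single term. Benjamini-Hochberg adjustment covered all these genes, and 0.05 was the threshold. The fit was tested on simulated data. That simulation used smaller changes than those of the members, in genes with higher control levels than Havcr1 and Lcn2. Ratios and single genes were also compared between groups by exact permutation tests, two-sided. Promoter sequences were matched by symbol, 3 of 4 members. Figures were drawn with matplotlib 3.10.9.

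The members, lists and tests were chosen with earlier results of these data known, and the motifs after the sequences had been seen. The genes named are the 4 members and the nearest gene in pattern to Havcr1 and to Lcn2. The RefSeq gene table carried an Ensembl ID in 0 of 47357 rows, so lists of receptors, other injury markers, inducing factors and cell type markers, given by symbol, were not analysed here. Alternatives changed the pseudocount, the filter, the scaling, the limma options or the fold threshold, or used a replicate block or left out 1 library.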

Additional observations from a re-analysis of the deposited data

How the results depend on the processing

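All 4 members kept their increase and their limma call under each of 18 alternatives, with adjusted p from 1.18e-07 to 0.00122. Leaving out 1 library gave log2 increases of 5.81 to 6.75 for Havcr1, 3.56 to 3.96 for Lcn2, 4.46 to 5.21 for Clu and 4.04 to 4.92 for Spp1. With the replicate number as a block (replicate block) adjusted p was 0.000375, 0.000533, 0.00075 and 0.000665 in the same order, with unchanged sizes, and 6900 genes were called in place of 6222; it changed no call of a member. Deviations from the group means correlated at 0.13, 0.03 and 0.02 between same-numbered libraries, which were not above 0.1 in every pair, so the numbers were not read as pairs. Controls 1 and 3 correlated best with the FSGS library of their own number, and control 2 with FSGS 3. Ranks by log2 change ran over the settings from 1 to 3 for Havcr1, 19 to 63 for Lcn2, 1 to 27 for Clu and 2 to 51 for Spp1, since the pseudocount sets the fold of low genes.

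Of the ratios between members, those of Lcn2 to Clu and to Spp1 turned to -1.16 and -0.71 with a pseudocount of 1, which compresses the low control values of Lcn2. The same setting lowered Havcr1 to Clu from 3.20 to 1.36 and Havcr1 to Spp1 from 3.70 to 1.81. Leaving out 1 library kept the sign of each pair: 1.65 to 3.15 for Havcr1 to Lcn2, 2.51 to 3.88 for Havcr1 to Clu, 2.76 to 4.47 for Havcr1 to Spp1, 0.037 to 1.02 for Lcn2 to Clu, 0.73 to 1.61 for Lcn2 to Spp1 and 0.021 to 0.94 for Clu to Spp1. The lowest values came without control 2, control 2, control 2, control 3, control 3 and FSGS 3. In sign-flip tests of the numbered differences the smallest possible exact p was 0.25. Unknown depth limits the control values of Havcr1 and Lcn2 most.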
